A study of Mus musculus with 19 samples.

Results

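The genes described here encode the subunits of the glutamate and GABA receptors of the mouse medial prefrontal cortex. They are the protein-coding rows of the deposited count table whose names begin as those of the AMPA (Gria), NMDA (Grin), kainate (Grik), delta (Grid) and metabotropic glutamate receptors (Grm) or of the GABA-A (Gabr) and GABA-B receptors (Gabbr). Of 57010 genes in the table, 45 had such a name and 39 of those had at least 10 counts in 4 or more libraries. All 39 were among the 17757 genes tested. The other 6 were Grin3b, Grm6, Gabra6, Gabrr1, Gabrr2 and Gabrr3. The study sequenced polyadenylated RNA from 19 libraries in a 2 by 2 design, with the stated aim of finding genes that differ between untreated, LPS-treated and sedanolide-treated tissue. All mice were wild type, and their age, sex and strain are not given in the sources used here. Control libraries (n = 4, numbered 1, 2, 4 and 5) came from mice given saline by gavage over 8 days and intraperitoneal saline over 5 days. LPS libraries (n = 5) came from mice given lipopolysaccharide, a component of the bacterial outer membrane, at 1 mg/kg by intraperitoneal injection over 5 days, with saline gavage begun 3 days earlier. For the sedanolide libraries (n = 5) mice received sedanolide, a phthalide of celery, at 20 mg/kg by gavage over 8 days with saline injections. For the co-treated libraries (n = 5) they received both agents at these doses, with sedanolide begun 3 days before LPS. Control replicate 3 was not analysed here, and nothing in the labels says that replicates were separate animals, so the p-values below measure the spread between these samples.

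Glutamate is the main excitatory transmitter of the cortex and GABA the main inhibitory one. Glutamate opens the AMPA, NMDA and kainate receptor channels, each an assembly of several subunits, and signals more slowly through the metabotropic receptors (mGlu), which act through G proteins. GABA opens the GABA-A receptor, a pentameric chloride channel usually built of alpha, beta and gamma or delta subunits, and acts through the G protein-coupled GABA-B receptor, an obligate pair of the Gabbr1 and Gabbr2 products. Subunit composition sets where a receptor sits and how fast it opens and closes.

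Library totals ran from 19.1 M to 24.3 M counts (M, mega), and the 39 subunits together took 0.442% to 0.570% of a library. Markers of cortical excitatory neurons were present in every group, with none of the 10 at 0 and a summed level of 1041 to 2566 CPM (library counts scaled to 1 M by way of TMM factors). Olfactory bulb transcripts were present in some libraries. Cdhr1, a transcript of olfactory bulb projection neurons, ran from 57.7 to 445 CPM in control replicates 1 and 5, in replicates 2, 3 and 4 of the LPS group and in replicates 3 and 4 of the sedanolide group. In the other 12 libraries, all 5 co-treated ones included, it ran from 2.29 to 9.92 CPM. With the line drawn at 20 CPM, the first 7 are named bulb-rich below and the 12 bulb-poor. Co-treated replicate 5 stood apart from its group in another respect, with 5.50% mitochondrial counts against 9.98% to 11.8% in the other co-treated libraries. It had the lowest share of all 19, and sedanolide replicate 3 came next at 6.52%. In bulk tissue, fewer cells of a type and less RNA per cell cannot be told apart.

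**Figure D1:**
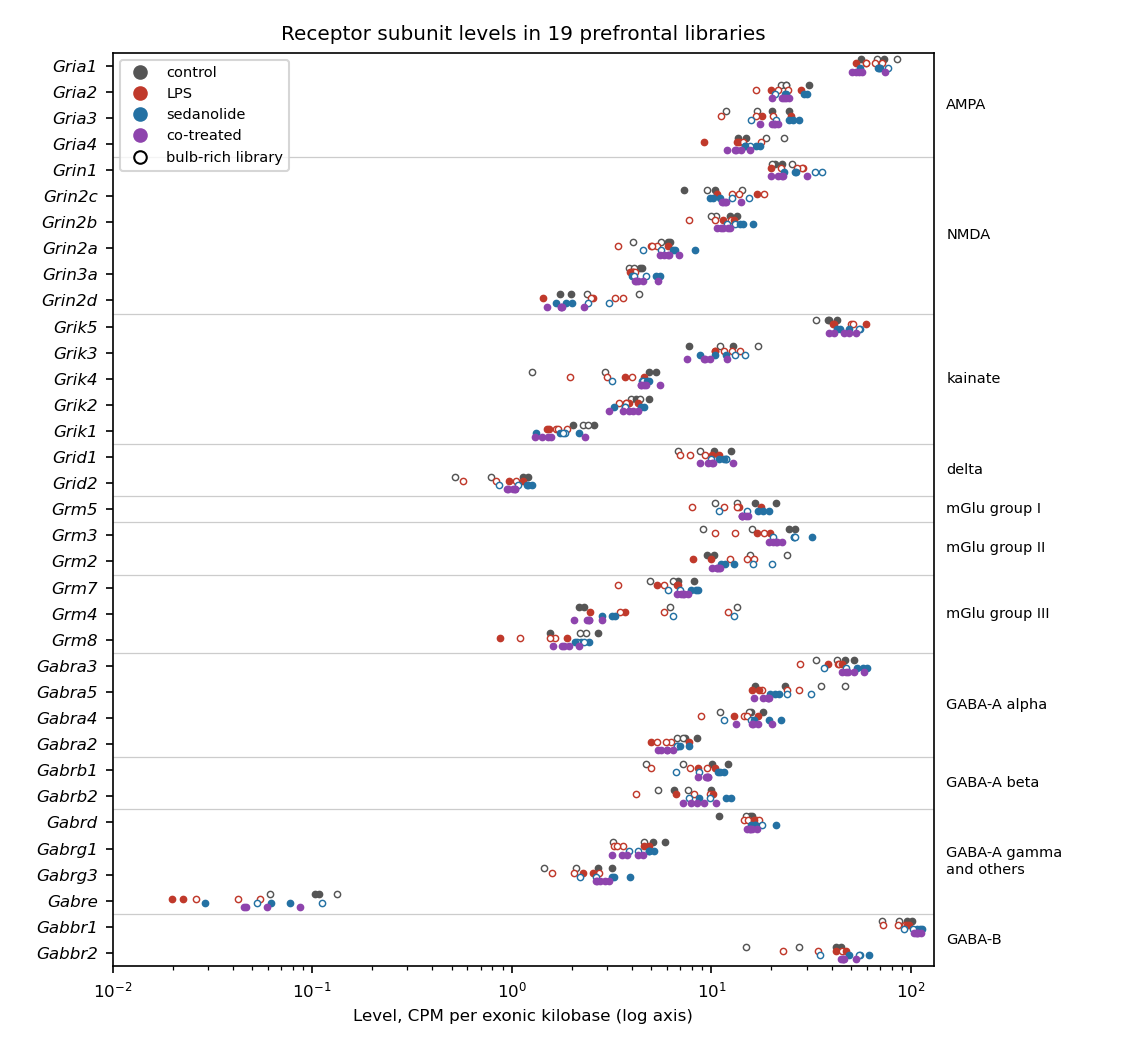
Level of 35 of the 39 subunits in CPM per exonic kilobase (log axis), 1 point per library, coloured by group, with bulb-rich libraries open; the Gabre value of 0 in co-treated replicate 2 is not drawn. Mean levels over the 19 libraries run from 98.1 for Gabbr1 to 0.060 for Gabre, and bulb-rich libraries sit to the right for Grm4, Grm2 and Grin2d.

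Levels can be set between genes only per length, so they are given first as CPM per kilobase of annotated exon (mean ± SD over 19 libraries). That length joins all annotated exons of a gene, used in this tissue or not. Orders, shares and ratios between genes therefore depend on the annotation. Gria1 and Gria2, for example, had means of 388 and 370 CPM over 6.04 and 15.5 kb of exon. Among AMPA subunits, Gria1 led at 64.3 ± 9.59, with Gria2, the subunit whose edited form keeps calcium out of the channel, at 23.8 ± 3.61. Gria3 at 20.0 ± 4.41 and Gria4 at 15.1 ± 2.93 followed, and the SDs of Gria2 and Gria3 overlapped. Gria1 made up 49.7% ± 4.79 of the AMPA sum per kilobase in the 12 bulb-poor libraries and 56.3% ± 4.70 in the 7 bulb-rich ones. In CPM, Gria1 read 517, 341, 442 and 407 in control replicates 1, 2, 4 and 5, and 361, 431, 359, 398 and 322 in LPS replicates 1 to 5. It read 334, 414, 462, 421 and 419 in sedanolide and 345, 307, 332, 321 and 446 in co-treated replicates 1 to 5. The 4 groups overlapped, and the high co-treated value was that of replicate 5.

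Grin1, the obligatory glycine-binding NMDA subunit, stood at 25.1 ± 4.51 CPM per kilobase, above each of the glutamate-binding Grin2 subunits. Grin2c at 12.3 ± 2.70 and Grin2b at 12.04 ± 1.86 differed by less than their SDs, then came Grin2a at 5.72 ± 1.07, Grin3a at 4.38 ± 0.503 and Grin2d at 2.32 ± 0.780. In CPM, however, Grin2b had a mean of 299 and Grin2c of 62.0, over 24.8 and 5.04 kb of exon, so their likeness rests on the lengths. The Grin2a to Grin2b ratio, which rises as cortical synapses mature, was 0.475 ± 0.0770 in control, 0.451 ± 0.0241 with LPS, 0.446 ± 0.0497 with sedanolide and 0.530 ± 0.0591 with both agents on this scale, with overlapping ranges. Among kainate subunits the high-affinity subunit Grik5 held 68.2% ± 3.70 of the sum (45.8 ± 7.08 CPM per kilobase), and Grik1, a channel-forming subunit, held the least, 2.76% ± 0.685. Of the delta receptors, which bind synaptic organizers of the cerebellin family, Grid1 held 91.1% ± 0.975 of the sum. In replicate order, Grid1 read 40.7, 61.7, 74.6 and 52.1 CPM in control and 64.9, 41.7, 55.5, 46.8 and 60.1 CPM in LPS libraries, and 65.0, 70.8, 59.3, 70.2 and 68.8 CPM with sedanolide and 57.4, 52.5, 60.7, 60.1 and 76.7 CPM with both agents. All groups overlapped.

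Each class of metabotropic receptor had its own leading gene. Grm5, the leading receptor of the group I class that couples to phospholipase C, stood at 14.7 ± 3.21 CPM per kilobase. It read 106, 169.5, 216 and 137 CPM in control and 142, 81.9, 137, 119 and 182 CPM in LPS libraries, and 185, 199, 112, 155 and 175 CPM with sedanolide and 146, 152, 157, 146 and 145 CPM with both agents, again in replicate order. Both the lowest control value and the lowest LPS value came from bulb-rich libraries.

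Group II receptors lower cyclic AMP. Grm3, which astrocytes also express, held 68.2% ± 2.87 of this class in bulb-poor libraries and 47.9% ± 11.9 in bulb-rich ones, the rest being the presynaptic receptor Grm2. Grm3 read 27.6, 74.9, 79.8 and 48.6 CPM in control and 51.5, 31.7, 56.3, 39.8 and 59.7 CPM in LPS libraries, and 78.8, 78.9, 62.0, 79.9 and 96.8 CPM with sedanolide and 65.2, 64.1, 62.1, 68.8 and 59.1 CPM with both agents. The 4 groups overlapped. In group III, presynaptic receptors that hold back release, Grm7 held 61.4% ± 2.65 of the class in bulb-poor libraries and 37.4% ± 13.4 in bulb-rich ones. Grm7 read 29.0, 39.9, 47.9 and 37.7 CPM in control and 31.5, 20.1, 40.1, 34.1 and 39.6 CPM in LPS libraries, and 50.3, 49.1, 35.6, 40.9 and 46.6 CPM with sedanolide and 42.5, 41.7, 42.7, 39.6 and 45.1 CPM with both agents, and the groups overlapped. Grm4 of the same class held 22.6% ± 5.05 in bulb-poor and 50.7% ± 15.7 in bulb-rich libraries.

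Of the GABA-A alpha subunits, which help form the benzodiazepine site, Gabra3 led at 46.2 ± 8.38 CPM per kilobase. Gabra5, an alpha subunit of extrasynaptic receptors, stood at 22.9 ± 7.74, Gabra4 at 15.6 ± 3.24 and Gabra2 at 6.55 ± 0.925. The beta subunits Gabrb1 and Gabrb2 stood at 8.99 ± 2.02 and 8.57 ± 2.11, closer than their SDs. Gabrd, the delta subunit of extrasynaptic receptors, stood at 16.0 ± 1.87. Gabrg1, Gabrg3 and the epsilon subunit Gabre lay lower, at 4.26 ± 0.782, 2.62 ± 0.590 and 0.0602 ± 0.0356. Gabbr1 was the most abundant of the 39 at 98.1 ± 12.2 CPM per kilobase, against 42.7 ± 11.6 for Gabbr2. The Gabbr1 to Gabbr2 ratio per kilobase was 3.12 ± 1.20 in control, 2.42 ± 0.458 with LPS, 2.10 ± 0.335 with sedanolide and 2.29 ± 0.117 with both agents. The control ratios ran from 2.25 to 4.81 and overlapped those of each other group, and Gabbr1 held 68.6% ± 1.83 of the GABA-B sum in bulb-poor and 73.0% ± 5.94 in bulb-rich libraries.

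Many GABA-A genes lie side by side. As the deposited table gives positions (build not given), Gabrg1, Gabra2, Gabra4 and Gabrb1 lie on chromosome 5, Gabrg3 and Gabra5 on chromosome 7, and Gabre and Gabra3 on chromosome X. Gabra4 and Gabrb1 overlap each other. In all, 21 of the 39 subunits, Gabra5 (chr7:57057420-57159807, minus strand) among them, overlap a gene on the other strand. Whether the counting used strand is not given, so reads of such pairs may be shared between them.

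After LPS, 4 subunits fell and none rose. Among them were Grik1 of the kainate receptor and Grm8, a presynaptic group III receptor, with log2 changes of -0.48 and -0.65. The 4 are 10.3% of the 39 subunits, where 2.44% of all genes tested were called lower and 8.47% higher (edgeR quasi-likelihood test, adjusted p below 0.05). Of the 39 changes, 30 were negative and 9 positive, with a median log2 change of -0.14 against -0.0034 over all genes, and 11 subunits had an unadjusted p below 0.05. The share of all genes with such a p was not counted. Counts by unadjusted p, here and below, therefore show no excess over other genes. The median came to -0.23 when control replicate 1 was left out, to -0.070 when control replicate 4 was, and to -0.072 (15 positive, 24 negative) with limma-voom. DESeq2 called 6 subunits lower, and limma-voom 6 lower and 2 higher, against 13.3% and 25.4% of all genes in either direction.

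Grik1 read 15.2, 13.6, 17.3 and 16.2 CPM in control replicates 1, 2, 4 and 5, and 10.3, 11.2, 11.5, 12.7 and 10.1 CPM in LPS replicates 1 to 5. Every LPS library lay below every control. This gave a log2 change of -0.48 (SE 0.15, adjusted p = 0.0449, edgeR with Benjamini-Hochberg adjustment). Grm8 read 23.2, 15.4, 26.7 and 21.8 CPM in control and 8.65, 10.9, 16.3, 15.3 and 18.6 CPM in LPS libraries. Control replicate 2 fell inside the LPS range. Its log2 change, -0.65 (SE 0.18, adjusted p = 0.0216, edgeR), was the largest fall among the 4.

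Gabre also had separate ranges, 0.292 to 0.628 CPM in control against 0.094 to 0.258 in LPS libraries. It reached 10 counts in only 4 libraries, the fewest that the inclusion rule allowed, and its mean was highest in control. The separation thus partly follows from how Gabre was included and gives no support for a fall. At that depth the Gabre log2 change of -1.57 (SE 0.51) missed the threshold (adjusted p = 0.0563, edgeR). Grik1 and Gabre were the 2 subunits with all LPS libraries below all controls, a pattern held by 2.8% of all genes tested. Gabra2, an alpha subunit of synaptic receptors, came next by p (log2 change -0.30, adjusted p = 0.0751, edgeR). The subunits with the largest positive changes were Grin2c, an NMDA subunit found in astrocytes and some interneurons (0.48, SE 0.18, adjusted p = 0.0965, edgeR), and Grik5 (0.34, SE 0.12, adjusted p = 0.0877, edgeR).

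Other RNA moved with LPS. The summed level of 6 microglial markers was 344 ± 71.4 CPM in control and 821 ± 86.4 in LPS libraries, and that of 5 endothelial markers 299.7 ± 66.0 and 523 ± 38.7. The 10 markers of cortical inhibitory neurons summed to 1004 to 2680 CPM in control and 822 to 1957 in LPS libraries, and none was at 0. Their part in the falls of the receptor subunits was not tested. None of the 4 subunits was called when control replicate 4 or control replicate 5 was left out, and 1 was called with only these groups in the fit.

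Of the 39 subunits, 24 have a promoter in the RefSeq table (build GRCm38.p6), among them 3 of the 7 called in any comparison. They are shown because edgeR called them lower than in control, Grm8 after LPS and Gabra2 and Gabra5 in co-treated libraries. These calls depended on the libraries and settings used, as given below. Each runs 5′ to 3′ on the minus strand, 300 bases that span the transcript start. Capitals mark the GC box, GGGCGG or its reverse complement, the motif of Sp-family factors. Grm8 lies at chr6:28135097-28135396, Gabra2 at chr5:71095800-71096099 and Gabra5 at chr7:57510010-57510309.
Grm8: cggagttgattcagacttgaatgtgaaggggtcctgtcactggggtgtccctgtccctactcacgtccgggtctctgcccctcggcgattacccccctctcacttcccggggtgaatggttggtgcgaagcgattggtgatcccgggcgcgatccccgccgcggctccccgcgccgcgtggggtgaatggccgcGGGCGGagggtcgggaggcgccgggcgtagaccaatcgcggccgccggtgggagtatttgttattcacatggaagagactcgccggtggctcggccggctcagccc
Gabra2: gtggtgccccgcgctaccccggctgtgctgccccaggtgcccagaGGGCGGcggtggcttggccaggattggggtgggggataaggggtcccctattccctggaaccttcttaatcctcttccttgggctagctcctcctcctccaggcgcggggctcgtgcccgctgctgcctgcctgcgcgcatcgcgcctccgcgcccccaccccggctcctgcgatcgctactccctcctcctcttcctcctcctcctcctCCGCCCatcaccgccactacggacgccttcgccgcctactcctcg
Gabra5: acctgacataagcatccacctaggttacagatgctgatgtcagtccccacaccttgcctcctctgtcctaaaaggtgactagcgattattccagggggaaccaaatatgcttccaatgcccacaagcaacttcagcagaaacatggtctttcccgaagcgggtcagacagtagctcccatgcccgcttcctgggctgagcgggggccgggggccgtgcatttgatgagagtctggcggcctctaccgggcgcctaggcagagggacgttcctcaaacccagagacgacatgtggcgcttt
Gabra2 holds 2 GC boxes, Grm8 1 and Gabra5 none. Of the 24 subunit promoters, 16 (66.7%) hold a GC box on either strand, against 35.9% of 27025 promoters of the same length, and their median GC content is 65.7% against 52.7%. The cyclic AMP response half-site TGACG occurs in 3 of the 24 (12.5%) and in 20.9% of all. None of the 3 printed promoters holds it. These matches describe letters only.

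**Figure D2:**
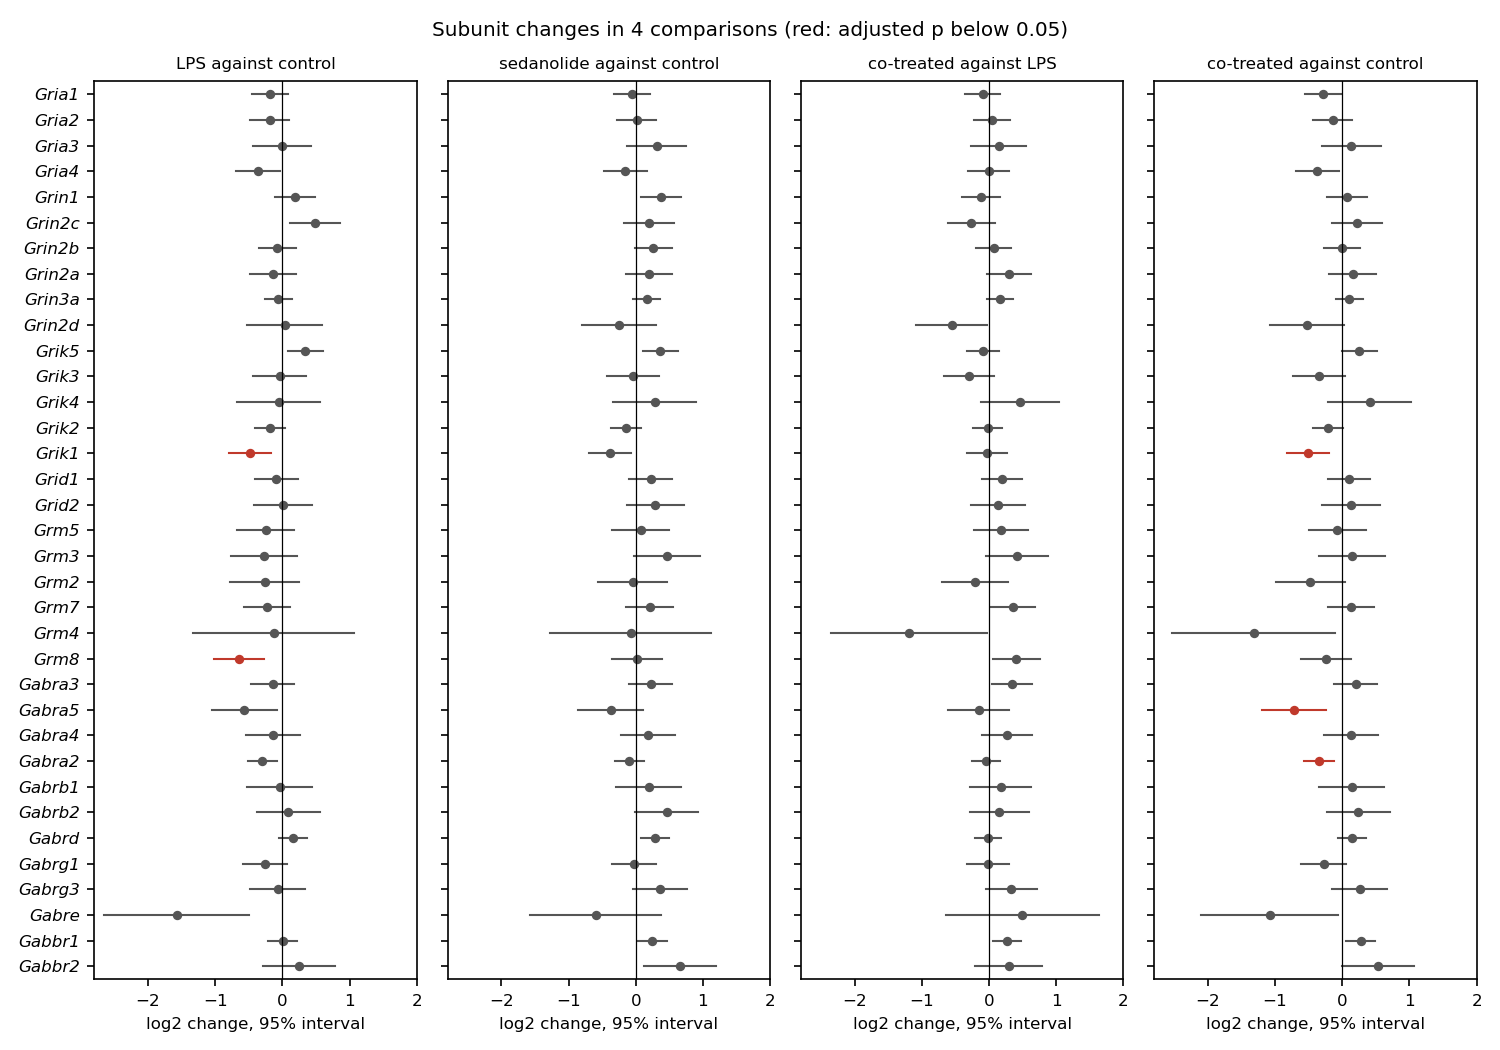
Log2 change of 35 of the 39 subunits with its 95% interval (edgeR, all 19 libraries in 1 model) in 4 comparisons, red where the adjusted p was below 0.05. Grm8 and Grik1 are red in LPS against control and Grik1, Gabra2 and Gabra5 in co-treated against control, and the other 2 comparisons hold no red point.

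Sedanolide alone changed no subunit past the threshold. The 3 with the smallest p were Grik5, Gabrd and Grin1, all with higher means in sedanolide libraries. With edgeR 0 of 39 were called, where 3.2% of all genes were called higher and 2.11% lower, and 7 had an unadjusted p below 0.05. DESeq2 called 1 subunit and limma-voom 10, where these tools called 10.6% and 24.8% of all genes in either direction. The 39 log2 changes had a median of 0.16 against -0.01 over all genes, with 24 positive and 15 negative. The median was 0.074 without sedanolide replicate 1, 0.10 without sedanolide replicate 5, and 0.089 without control replicate 1 or with the bulb index, the mean log2 level of 4 bulb projection neuron transcripts, as a covariate. The 10 markers of cortical excitatory neurons summed to 1697 ± 513 CPM in control and 2322 ± 280 in sedanolide libraries, with overlapping ranges. Their sum was 1723 ± 478 CPM in bulb-rich and 2248 ± 200 in bulb-poor libraries. The part of these markers in the changes with sedanolide, here and below, was not tested.

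Grik5 read 201, 220.4, 197 and 173 CPM in control and 229, 219, 288, 285 and 252 CPM in sedanolide libraries. The lowest sedanolide library was just under the highest control. This was a log2 change of 0.36 (SE 0.12, adjusted p = 0.0871, edgeR). Gabrd read 44.8, 45.8, 31.5 and 42.6 CPM in control and 60.4, 45.3, 47.5, 51.4 and 47.3 CPM in sedanolide libraries. Only 1 sedanolide value, that of replicate 2, lay inside the control range. The log2 change was 0.29 (SE 0.10, adjusted p = 0.0884, edgeR), and 0.18 without control replicate 4.

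Grin1 read 247, 203, 219 and 196 CPM in control and 259, 224, 346, 320.4 and 255 CPM in sedanolide libraries. Both high sedanolide values, replicates 3 and 4, are from bulb-rich libraries. Its log2 change was 0.38 (SE 0.14, adjusted p = 0.112, edgeR), and 0.20 in the bulb-poor libraries. The GABA-B genes also had positive changes, 0.66 (SE 0.26) for Gabbr2 and 0.24 (SE 0.10) for Gabbr1, with adjusted p of 0.120 and 0.150 (edgeR). For 36 of the 39 the 95% interval of the sedanolide change lay within 1 log2 unit of 0 on either side, and for 12 within 0.5.

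Adding sedanolide to LPS changed no subunit past the threshold either. Gabbr1, Grm8 and the alpha subunit Gabra3 had the smallest p, and all 3 had higher means in co-treated than in LPS libraries. With edgeR 0 of 39 were called, against 0.287% of all genes higher and 1.68% lower. An unadjusted p below 0.05 was found for 6, and DESeq2 called 0 and limma-voom 4, against 5.36% and 14.9% of all genes in either direction.

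Gabbr1 read 760.5, 562, 723, 670.3 and 745 CPM in LPS and 846, 803, 828.5, 819.7 and 874 CPM in co-treated libraries, so the ranges did not overlap. The log2 change was 0.27 (SE 0.10, adjusted p = 0.146, edgeR). Gabra3 read 150.3, 109, 169, 171 and 177 CPM in LPS and 204, 227, 191, 186 and 178 CPM in co-treated libraries, again with separate ranges. Its log2 change was 0.34 (SE 0.15, adjusted p = 0.201, edgeR). These were the 2 subunits with all co-treated above all LPS libraries, as were 3.33% of all genes tested. With the bulb index as a covariate both changes came to 0.11.

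Grm8, which fell with LPS, read 17.6, 21.4, 18.1, 16.0 and 19.3 CPM in co-treated libraries, and 3 of the 5 lay inside the LPS range of 8.65 to 18.6 CPM. The log2 change against LPS was 0.41 (SE 0.17, adjusted p = 0.195, edgeR). Against control it was -0.24. The comparisons of LPS and of co-treated libraries with control share the 4 controls, and those with LPS share its 5 libraries. Side by side, the log2 changes of LPS against control and of co-treated against LPS were -0.65 and 0.41 for Grm8 and -0.48 and -0.03 for Grik1.

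The interaction, that is, how far the change with sedanolide differed between LPS-injected and saline-injected mice, was called for 0 of 39 subunits with edgeR, where 0.214% of all genes were called higher and 0.372% lower. An unadjusted p below 0.05 was found for 3, and DESeq2 called 0 and limma-voom 6, against 2.61% and 21.6% of all genes in either direction. The 3 were Grik5 (-0.45, SE 0.17), Grin1 (-0.49, SE 0.20) and Gabrd (-0.31, SE 0.14), the same 3 genes that led the sedanolide comparison, which shares its libraries with this one. Their adjusted p were 0.212, 0.229 and 0.281 (edgeR), and without control replicate 4 the Gabrd value was -0.20. Grik5 read 309, 258, 265, 209 and 213 CPM in LPS and 213, 200.4, 238, 254 and 275 CPM in co-treated libraries. Grin1 read 279, 277, 261, 216 and 194 CPM in LPS and 209.6, 193, 221, 219.9 and 291 CPM in co-treated libraries, and Gabrd 47.9, 42.1, 49.7, 43.9 and 46.9 and 43.6, 44.8, 48.9, 45.9 and 44.7. For all 3 the LPS and co-treated ranges overlapped.

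Co-treated libraries had 4 subunits lower than controls. Among them were the GABA-A alpha subunits Gabra2 and Gabra5, and Grik1. The 4 are 10.3% of the 39, against 4.69% of all genes called lower and 6.38% called higher. Of the 39 changes 20 were positive and 19 negative, and 11 had an unadjusted p below 0.05. The split was 12 and 27 with the bulb index, 11 and 28 in bulb-poor libraries, and 14 and 25 without control replicate 1. Among markers of other cells, the microglial sum was 344 ± 71.4 CPM in control and 767 ± 83.9 in co-treated libraries, the endothelial sum 299.7 ± 66.0 and 419 ± 45.4, and the inhibitory neuron sum 1656 ± 797 and 965 ± 55.7. The inhibitory neuron sum also differed with bulb content, at 1773 ± 540 in bulb-rich and 963 ± 76.6 in bulb-poor libraries. All co-treated libraries were bulb-poor, as were 2 of the 4 controls. The sum ran from 822 to 1062 CPM over the 12 bulb-poor libraries and from 872 to 1022 CPM over the co-treated ones. How much of its lower co-treated mean goes with that split was not tested. The part of these markers in the falls was not tested.

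Gabra2 read 51.4, 64.9, 56.1 and 55.4 CPM in control replicates 1, 2, 4 and 5, and 42.6, 49.1, 45.9, 45.7 and 41.1 CPM in co-treated replicates 1 to 5. All co-treated values lay below all controls. The log2 change was -0.34 (SE 0.10, adjusted p = 0.0416, edgeR). In LPS libraries it read 37.9, 40.6, 48.2, 45.4 and 59.3 CPM and in sedanolide libraries 58.9, 51.6, 51.8, 51.3 and 52.9 CPM. The sedanolide range lay within that of control apart from replicate 4, which was just under it.

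Gabra2 was 1 of 2 subunits with all co-treated below all control libraries, as were 4.93% of all genes tested. Gabra5 read 139, 49.3, 69.3 and 106 CPM in control and 57.2, 57.8, 57.4, 48.5 and 54.1 CPM in co-treated libraries. The 2 bulb-rich controls were the high ones, and of the 2 bulb-poor controls 1 lay inside the co-treated range of 48.5 to 57.8 CPM and 1 above it. Its log2 change was -0.72 (SE 0.23, adjusted p = 0.0489, edgeR).

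Grik1 read 10.5, 8.80, 9.55, 10.3 and 15.6 CPM in co-treated libraries, of which replicate 5 alone reached the control range of 13.6 to 17.3 CPM. The log2 change was -0.51 (SE 0.15, adjusted p = 0.0346, edgeR). In sedanolide libraries Grik1 read 8.88, 11.7, 12.4, 12.2 and 14.5 CPM (log2 change against control -0.38, adjusted p = 0.121, edgeR). Gabbr1 was the 1 subunit with every co-treated library, 803 to 874 CPM, above every control, 557, 737, 787 and 676 CPM, as were 7.91% of all genes tested. For it the log2 change was 0.28 (SE 0.10, adjusted p = 0.0886, edgeR). None of the 4 was called without control replicate 5.

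**Figure D3:**
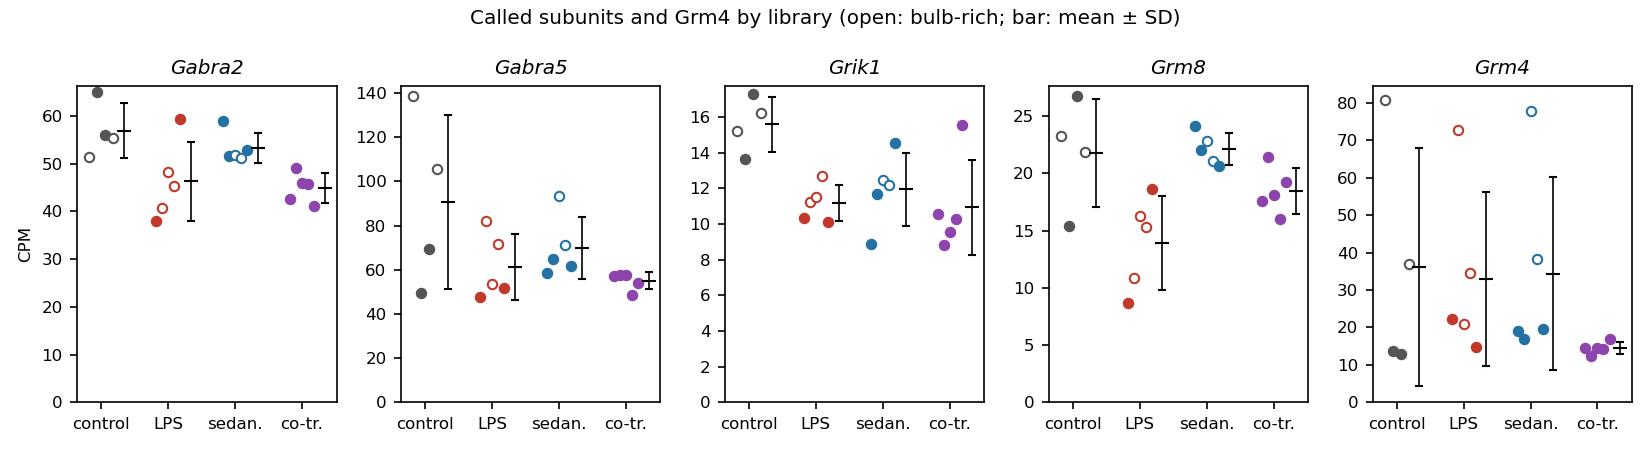
CPM in each library (axis from 0) of 4 subunits called in the comparisons and of Grm4, by group, with bulb-rich libraries open and black bars for mean ± SD (n = 4 control, 5 in each other group). Grik1 lies at 10.1 to 12.7 in LPS and 13.6 to 17.3 in control libraries, and the high Gabra5 and Grm4 values are open symbols.

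Several subunits differed between bulb-rich and bulb-poor libraries. Grm4, the group III receptor, had a mean of 51.7 ± 24.4 CPM in the 7 bulb-rich and 16.0 ± 2.98 in the 12 bulb-poor libraries, a log2 ratio of 1.69. The next highest ratios were those of Grin2d (0.73), Grm2 (0.69) and Gabra5 (0.64). At the other end stood Grik4 (-0.65), Gabbr2 (-0.52), Gabrb1 (-0.51) and Grm3 (-0.50). In all, 13 subunits had a higher mean in bulb-rich libraries and 26 a lower one. For 10 and 21 of these the sign was the same inside each of the 3 groups that held both kinds of library. Such counts were not made over all genes, so they cannot be read as a trait of the receptor subunits. The bulb-rich and bulb-poor ranges overlapped for all 39 subunits. Since the split was made on the libraries themselves, these are descriptions with no test.

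**Figure D4:**
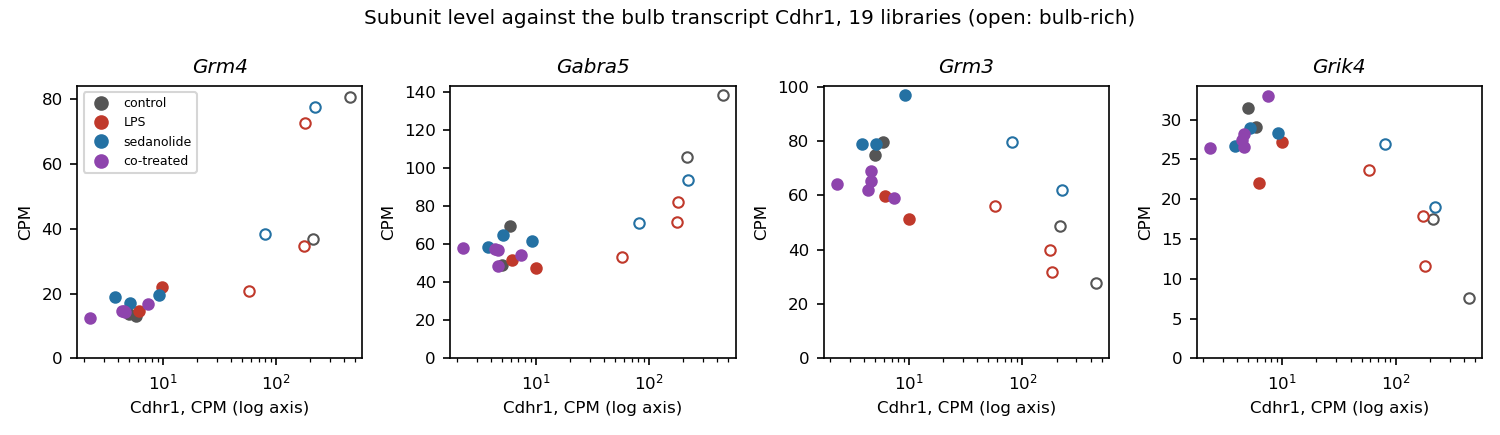
CPM of Grm4, Gabra5, Grm3 and Grik4 (axes from 0) against the CPM of Cdhr1 (log axis), 1 point per library, bulb-rich libraries open. Grm4 and Gabra5 are highest at the right, where control replicate 1 reads 80.6 and 139 CPM, and Grm3 and Grik4 are lowest there, at 27.6 and 7.57 CPM.

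Because bulb-rich libraries occurred in 3 of the 4 groups, the comparisons were refitted with the bulb index as a covariate. In LPS against control, 8 subunits were then called lower and 1 higher, 20.5% and 2.56% of the 39, against 4.44% and 11.3% of all genes. Grm8 and Grik1 were called again, with nearly the same log2 changes. Also called lower were Gabra2 (-0.31, adjusted p = 0.0382), Gabra5 (-0.47, adjusted p = 0.0104) and Gabre (-1.56, adjusted p = 0.0357), all from edgeR. Gabre was included on only 4 libraries with at least 10 counts, so its call is not independent of that rule. Grin2c was the 1 called higher (0.52, adjusted p = 0.0167, edgeR). In bulb-poor libraries alone (2 control and 2 LPS), Grm3 was the 1 subunit called lower (-0.50, adjusted p = 0.0264, edgeR), with 0.71% of all genes called lower, and Grm8 and Grik1 had log2 changes of -0.65 and -0.61. In 1 of these 2 LPS libraries, 8 markers of striatal neurons summed to 373 CPM, against a median of 172 over all bulb-poor libraries. These libraries thus also differed in other regional transcripts, whose part in these values was not tested.

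In co-treated against control, the bulb index removed 3 of the 4 calls. Gabra5 came to -0.18 (adjusted p = 0.480, edgeR) and Grik1 to -0.43 (adjusted p = 0.131, edgeR). Gabra2 was called again (-0.43, adjusted p = 0.0227, edgeR), and Gabrg1, a gamma subunit, and Grm5 were called lower in addition, at -0.55 and -0.44 (adjusted p = 0.00348 and 0.0396, edgeR). These 3 are 7.69% of the 39, where 1.72% of all genes were called lower and 4.36% higher. Among bulb-poor libraries Gabrg1 alone was called lower (-0.51, adjusted p = 0.0239, edgeR; 0.789% of all genes), and Gabra5 came to -0.11, Gabra2 to -0.44 and Grik1 to -0.50. Gabrg1 read 25.3, 46.2, 40.3 and 36.1 CPM in control and 28.2, 36.0, 29.7, 33.6 and 25.1 CPM in co-treated libraries, and the lowest 2 controls were the bulb-rich ones. For sedanolide against control the index gave 1 call, Grin1 higher (0.43, adjusted p = 0.0479, edgeR), with 4.6% of all genes called higher and 3.03% lower.

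**Figure D5:**
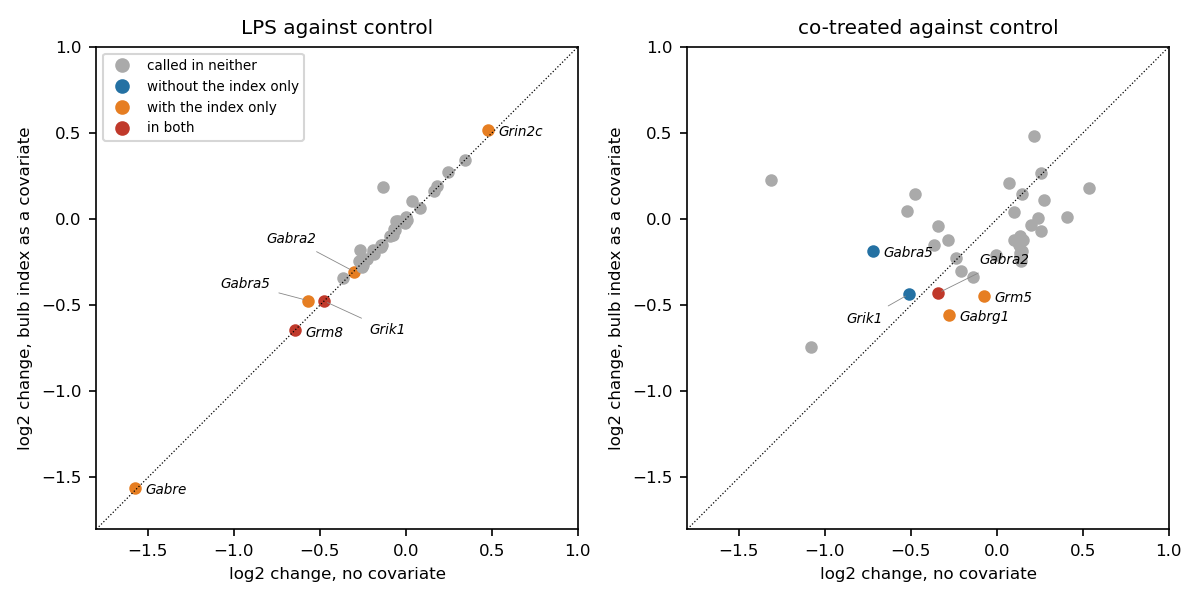
Log2 change of 35 of the 39 subunits with the bulb index as a covariate (vertical) against that without it (horizontal), the dotted line marking equal values and colours the fits in which a subunit was called. In LPS against control the named points lie near the line, and in co-treated against control Gabra5 moves from -0.72 to -0.18.

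Genes that act with the receptors were read from the same fits. Of 20 auxiliary subunits of AMPA and kainate receptors, edgeR called 0 after LPS (3 at an unadjusted p below 0.05, DESeq2 0, limma-voom 2, where DESeq2 called 13.3% and limma-voom 25.4% of all genes). With sedanolide 2 of the 20 were higher, against 3.2% of all genes, and DESeq2 called 4 and limma-voom 9. The 2 were Cacng3, a transmembrane AMPA regulatory protein (89.3 ± 27.5 CPM in control, 141 ± 23.98 in sedanolide, log2 change 0.66, SE 0.18, adjusted p = 0.0446, edgeR), and Nptx2, a pentraxin that clusters AMPA receptors (56.7 ± 9.08 and 79.0 ± 7.78 CPM, log2 change 0.48, SE 0.11, adjusted p = 0.0230, edgeR). With the bulb index both were called again, at 0.54 and 0.55. The median over the 20 was 0.23 against -0.01 for all genes. In co-treated against control 2 of the 20 were called, with 5 called by DESeq2 and 8 by limma-voom, where edgeR called 6.38% of all genes higher and 4.69% lower, DESeq2 15.8% and limma-voom 26.9%. Cacng3 was higher (0.58, adjusted p = 0.0496, edgeR) and Shisa6, another AMPA receptor partner, lower (-1.13, adjusted p = 0.0252, edgeR). With the bulb index these came to 0.29 and -0.42, with adjusted p of 0.228 and 0.199 (edgeR). Of 16 tested GABA-A and GABA-B receptor partners, such as gephyrin and the Kctd proteins, edgeR called 0 in each of the 5 comparisons. For sedanolide against control 9 of the 16 had an unadjusted p below 0.05, and DESeq2 called 3 and limma-voom 10, against 10.6% and 24.8% of all genes. In the other 4 comparisons 2 to 4 had such a p, DESeq2 called 0 or 1 and limma-voom 1 to 6.

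Genes of transmitter supply were called in co-treated libraries. Of 8 genes of GABA synthesis, release and uptake, 3 were lower than in controls, against 4.69% of all genes. Gad2, a GABA-synthesizing enzyme, read 245 ± 115 CPM in control and 132 ± 3.81 in co-treated libraries (log2 change -0.89, adjusted p = 0.0379, edgeR). The transporter Slc6a13 (-1.60, adjusted p = 0.0437, edgeR) and the GABA-degrading enzyme Aldh5a1 (-0.21, adjusted p = 0.0324, edgeR) were the others. Of 10 genes of glutamate release, uptake and metabolism, 3 were lower, against the same 4.69%. They were the vesicular transporter Slc17a6 (-0.82) and the glutamine transporters Slc38a1 (-0.49) and Slc38a2 (-0.53), with adjusted p of 0.0222, 0.0386 and 0.0367 (edgeR). The median log2 changes of these lists were -0.95 and -0.06, against 0.0075 for all genes. The 10 inhibitory neuron markers, Gad2 among them, summed to 1773 ± 540 CPM in bulb-rich and 963 ± 76.6 in bulb-poor libraries (mean ± SD). With the bulb index as a covariate none of these 6 genes was called, and Gad2 came to -0.23 (adjusted p = 0.325, edgeR). In the other 4 comparisons edgeR called 0 genes of either list, with 0 to 4 of a list at an unadjusted p below 0.05, 0 or 1 called by DESeq2 and 0 to 2 by limma-voom. Of 4 tested genes of chloride transport, receptor editing and D-serine metabolism, 1 was called with sedanolide (3.2% of all genes were called higher), Slc12a5, the neuronal chloride exporter on which fast GABA inhibition depends. It read 444 ± 29.5 CPM in control and 568 ± 36.7 in sedanolide libraries (log2 change 0.36, SE 0.08, adjusted p = 0.0216, edgeR). Every sedanolide library lay above every control, a pattern not counted over all genes. DESeq2 and limma-voom each called 2 of the 4, where they called 10.6% and 24.8% of all genes. The bulb index also gave 2 calls. In the other 4 comparisons edgeR and DESeq2 called 0 of this list and limma-voom 0 to 2.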

How the data were processed

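Polyadenylated RNA of mouse medial prefrontal cortex was extracted with TRIzol and made into libraries with a stranded Illumina kit, per the labels. What the authors deposited is a table of raw read counts, whole numbers for each gene in 19 libraries. The submitters' processing notes name DESeq2, RSEM, StringTie, HISAT2 and fastp and give no version of them; the genome build and strand setting of the counting are not given in the sources used here. The test was that of edgeR 4.0.16, run in R 4.3.3 (TMM factors, default expression filter by group, quasi-likelihood test with robust dispersion, 1 mean per group, all 19 libraries). It was two-sided, with Benjamini-Hochberg adjustment across the 17757 genes that passed the filter, and an adjusted p below 0.05 made a call. Dividing the size of the log2 change by the root of its F value gave the SE. DESeq2 1.42.0, limma-voom with sample weights (limma 3.58.1), other factors and filters, a replicate block, a bulb index (4 transcripts), bulb-poor libraries alone, length and GC offsets and the leaving out of each library were alternatives. CPM values are TMM-scaled, and exon lengths come from the GENCODE annotation, matched for 39 of 39 subunits. Library totals of 19.1 M to 24.3 M counts (M, mega) put every subunit except Gabre at 10 or more counts in all 19 libraries. Grik1, for example, had 189 to 412 counts in a library. How much of the spread between libraries is counting error was not worked out for each subunit. No pair of libraries of a group agreed within sampling noise (36 pairs, chi-square per degree of freedom 2.47 to 114). The tests were tried on simulated data first. The subunits, gene lists and tests were chosen with earlier results of these data known. Subunits given library by library are those called in any comparison, the 3 with the smallest p where fewer than 3 were called, and the most abundant of each class per kilobase; of the lists, the genes called. Gabrg1 was added after its values were seen. Counts cover all 39 subunits, but some subunits are not reported here one by one.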

Additional observations from a re-analysis of the deposited data

Results flagged for a closer look

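Of 140 sets of values (35 subunits in 4 groups), 9 had 1 library far from the others of its group by Dixon's criterion, which chance alone meets in about 1 set of 20. Co-treated replicate 5, the library with the lowest mitochondrial share (5.50%), accounted for 6 of the 9. It was high for Gabbr2 (356 CPM, others 299.5 to 307), Gria1 (446 CPM, others 307 to 345), Grik1 (15.6 CPM, others 8.80 to 10.5), Grik4 (33.0 CPM, others 26.4 to 28.1) and Grin1 (291 CPM, others 193 to 221), and low for Gabrb1 (119 CPM, others 131 to 133). The Grik1 value bears on a reported fall, whose log2 change against control came to -0.67 without that library. Sedanolide replicate 3, a bulb-rich library, was low for Grik4 (18.99 CPM, others 26.6 to 28.9). The other flagged values were Gabra2 in sedanolide replicate 1 (58.9 CPM, others 51.3 to 52.9) and Grin2c in co-treated replicate 4 (71.3 CPM, others 56.8 to 59.7).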

How the results depend on the processing

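The changes described by comparison (those called, or the 3 of smallest p) kept their sign in each alternative run, and RLE and upper-quartile factors and a filter of 1 CPM kept each on its side of the threshold. The number of subunits called in LPS against control, 4, became 8 with limma-voom (6 lower), 1 with only the groups compared, 9 with the bulb index and 1 in bulb-poor libraries. It was 6 with DESeq2 and 6 with length and GC offsets, 5 with upper-quartile factors and 3 with no expression filter, all of them lower. For sedanolide against control, 0 became 1 with DESeq2 (Grik5), 10 with limma-voom (8 higher, Gabbr2 and Grik5 among them) and 1 with the bulb index. For co-treated against LPS, 0 became 4 with limma-voom. For co-treated against control, 4 became 2 with no expression filter, 11 with limma-voom, 2 with only the groups compared, 1 in bulb-poor libraries and 2 when length and GC were corrected for. There DESeq2 called 4 lower and 1 higher, and the bulb index gave 3, all lower. For the interaction, 0 became 6 with limma-voom, and no fit of only the groups compared exists for it. The causes were not tested.

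With a replicate block the calls were 1 in LPS against control and 1 in co-treated against control, and 0 in the other 3 comparisons. Equal numbers do not pair these libraries in the labels, and 5 of 27 same-number pairs had deviations correlated above 0.1 (median r -0.08), with 1 of 19 libraries closest to one of its own number.

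Leaving out 1 library at a time gave 0 to 6 calls in LPS against control, 0 to 1 in sedanolide against control (1 without control replicate 2), 0 to 0 in co-treated against LPS and in the interaction, and 0 to 6 in co-treated against control. In LPS against control it was 0 without control replicate 4 or 5, 1 without LPS replicate 1, 2 or 3, and 2 without control replicate 1 or co-treated replicate 1, 3 or 4. Grm8 was no longer called once control replicate 4 or 5 or LPS replicate 2 was removed. Grik1 lost its call without control replicate 1, 4 or 5 or any LPS library but replicate 4, and also without sedanolide replicate 2 or 4 or co-treated replicate 1, 3 or 4. In co-treated against control the count was 0 without control replicate 5, 1 without control replicate 1 or co-treated replicate 1, 3 or 4, and 2 without LPS replicate 3, sedanolide replicate 5 or co-treated replicate 2 or 5. Grik1 was lost without control replicate 1, 4 or 5 or co-treated replicate 1, 2, 3 or 4. Gabra2 lost its call without control replicate 2, 4 or 5, LPS replicate 3, sedanolide replicate 5 or co-treated replicate 1, 3, 4 or 5. Gabra5 was lost in 14 of 19 fits, all except those without control replicate 2 or 4, LPS replicate 1 or 2 or sedanolide replicate 3, and came to -0.44 without control replicate 1.

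Calls made this close to the threshold, 4 control libraries and a bulb content that differs between groups limit what these counts show.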
